A study of Mus musculus with 6 samples.

Results

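Receptors for lipid mediators and metabolites were followed in LPS-stimulated N9 microglia. The 10 genes, Gpr84, Hcar2, Ptafr, Gpr183, Ptger2, Ptger4, Cysltr1, Ltb4r1, Fpr1 and Fpr2, were taken by gene name from the 54532 genes of the count table. All of them encode G protein-coupled receptors on the cell surface. Such receptors bind a small ligand outside the cell and pass the signal to a G protein inside it, which raises or lowers cyclic AMP or releases calcium. Myeloid cells, microglia among them, use these receptors to sense products of inflammation and metabolism, and many of the ligands are made from membrane phospholipid and arachidonic acid. Fatty acids of medium chain length act on Gpr84, ketone bodies and nicotinic acid on Hcar2, platelet-activating factor on Ptafr, oxysterols on Gpr183, prostaglandin E2 on Ptger2 and Ptger4, cysteinyl leukotrienes on Cysltr1, and leukotriene B4 on Ltb4r1. Fpr1 and Fpr2 respond to formylated peptides from bacteria and mitochondria, and Fpr2 also to annexin A1 and lipoxin A4.

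The data were RNA-seq read counts from N9 microglia, an immortalised mouse microglial cell line, grown in RPMI 1640 with serum. Untreated cells formed the control group of 3 libraries, and cells given bacterial lipopolysaccharide (LPS) at 1 µg/ml for 6 h formed the LPS group of 3 libraries. The comparison asked how the transcriptome of N9 cells differed after LPS. N9 is 1 line, and the labels do not say that the replicates were separate cultures, so the p-values measure only the spread between these libraries. RNA was bulk, so fewer cells expressing a gene and less RNA per cell cannot be told apart.

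Library totals lay between 16363767 and 17956772 counts, and every pair of replicates differed by more than sampling noise. Of 14 markers of microglia and macrophages, 11 passed the filter on low counts, with a summed level of 2038 to 2125 CPM (counts of a gene scaled to the size of its library) in control and 2104 to 2148 CPM in LPS libraries. Of the markers of brain microglia in this list, Tmem119 averaged 9.65 CPM in control and 9.28 CPM in LPS libraries and Cx3cr1 3.05 and 3.04 CPM, while others were near absent: P2ry12 averaged 0.264 CPM in control and 0.269 CPM in LPS libraries, and Sall1 had 1 count in 1 control library and none elsewhere. Of 10 neutrophil markers only S100a8 passed the filter, and the list summed to between 4.03 and 4.65 CPM in control and between 10.5 and 12.2 CPM in LPS libraries, with Ly6g and Retnlg at 0 throughout. Of 8 lymphocyte markers 1 passed the filter and 4 were at 0 in all libraries, with sums of 0.861 to 1.59 CPM in control and 0.487 to 0.61 CPM in LPS libraries. The lists for neurons, astrocytes and oligodendrocytes had 1 gene each past the filter (Map2, Aldoc and Mbp) and were lower in LPS libraries without overlap, with sums of 21.7 to 23.6 against 16.6 to 18.3 CPM, 111 to 115 against 97.6 to 103 CPM, and 33.4 to 39.8 against 27.9 to 29.5 CPM. Their part in the results was not tested. None of 12 hepatocyte markers passed the filter, but control replicates 2 and 3 held 155 and 292 counts of Alb, the gene of serum albumin, against 2 in control replicate 1 and 2, 0 and 0 in the LPS libraries. The members were therefore also compared with control replicate 1 as the lone control, and the same 3 receptors passed the test in the same direction, with log2 fold changes (log2FC) of 2.59 for Gpr84, 1.82 for Ptafr and −1.10 for Gpr183.

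Gpr84 and Ptafr rose with LPS and Gpr183 fell, while Hcar2, Ptger4, Cysltr1 and Ltb4r1 did not pass the test. Fpr1 and Fpr2 had no reads in any control library and a few reads in every LPS library. Of the 10 receptor genes, 7 passed the filter on low counts and entered the edgeR quasi-likelihood test. Of these 7, 2 were up-regulated differentially expressed genes (DEG, an adjusted p under 0.05 and an absolute log2FC over 1.5), beside 2.4% of the 12296 genes tested. No receptor was a down-regulated DEG by edgeR, at an unadjusted p under 0.05 or by DESeq2, beside 0.252% of all genes. The lowest log2FC by edgeR, −1.11 for Gpr183, was short of the fold threshold, so the choice of p could not change this. DESeq2 called 3 up-regulated receptors, Fpr1 being the addition, beside 325 up-regulated and 35 down-regulated DEG among all genes. It kept all 10 receptors and was not limited to the 12296 genes, so its calls do not compare with the 2.4%. With the adjusted p alone, at any fold change, 2 of the 7 were higher, beside 18.7% of all tested genes, and 1 was lower, beside 15.7%. The control and LPS values did not overlap for 4 of the 7, 2 of them with all LPS libraries above (23.7% of all genes) and 2 with all LPS libraries below (21.5%). The median log2FC of the 7 was 0.05, and that of all tested genes was 0.00.

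**Figure D1:**
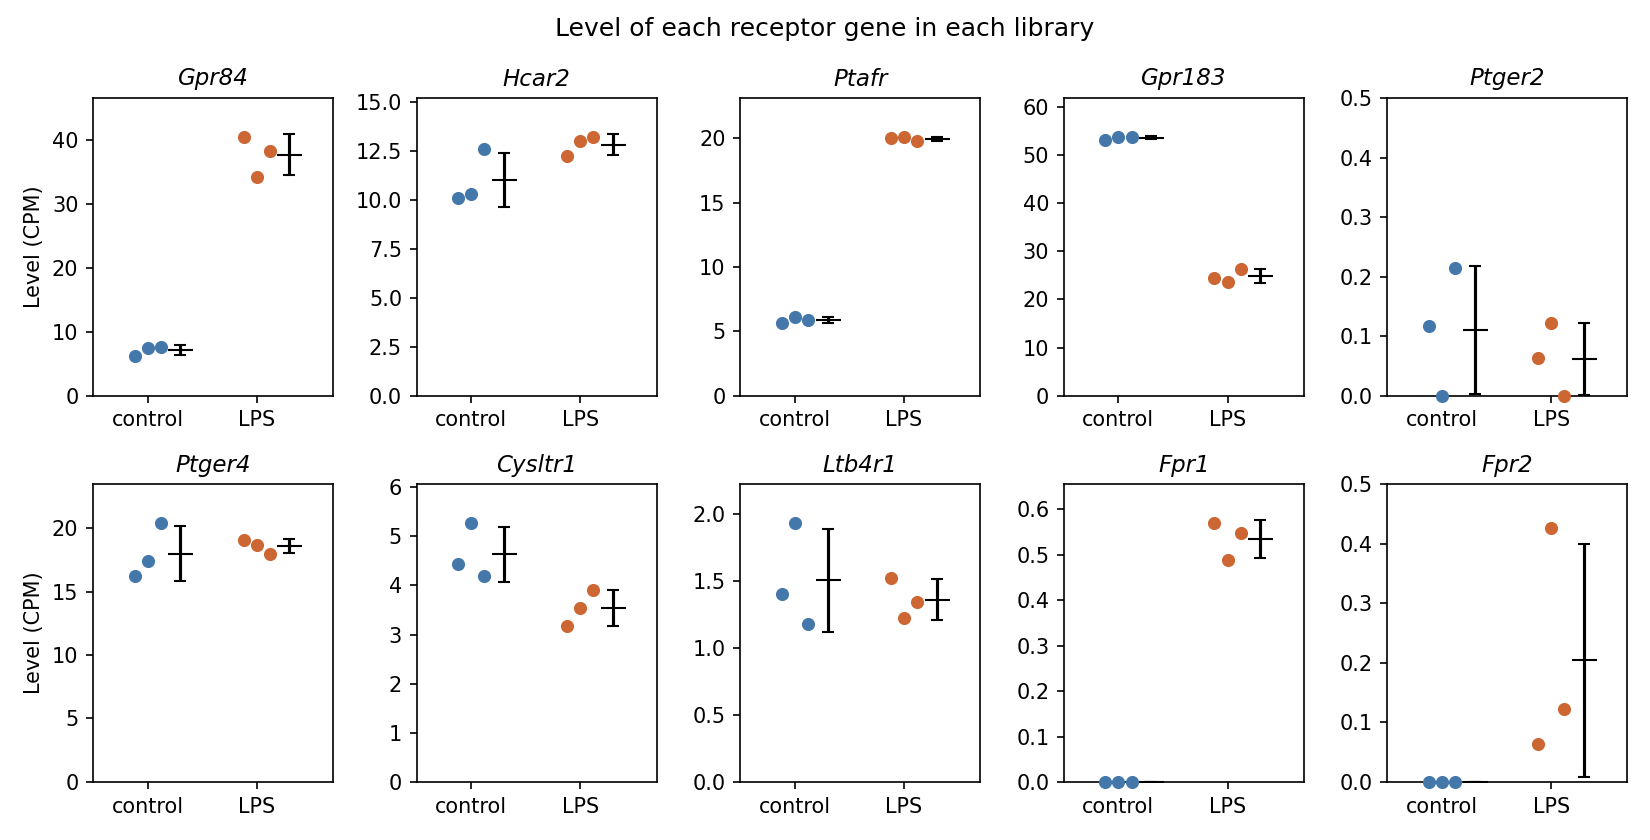
Level of each of the 10 receptor genes in CPM, on a linear axis from 0 with its own range in each panel, in the 3 control libraries (blue) and the 3 LPS libraries (orange); the horizontal mark and bar show the mean and SD. Gpr84 moved from 7.12 to 37.7 CPM, Ptafr from 5.88 to 20 CPM and Gpr183 from 53.6 to 24.9 CPM without overlap of the groups, while the points of Hcar2, Ptger4 and Ltb4r1 overlapped.

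Gpr84 (ENSMUSG00000063234, chromosome 15, 103308235 to 103310612 on the minus strand, mm10) showed the largest change among the tested receptors. This Gi-coupled receptor is known from myeloid cells. It lay at 6.25, 7.48 and 7.64 CPM in the control libraries and at 40.5, 34.2 and 38.3 CPM in the LPS libraries. The lowest LPS library was thus far above the highest control library, and the replicates of each group lay close together. The mean went from 7.12 ± 0.763 CPM (SD, n = 3) to 37.7 ± 3.22 CPM (SD, n = 3), 5.27-fold, with a log2FC of 2.40 (SE 0.11, 95% interval 2.17 to 2.62, edgeR adjusted p = 1.4e-10). The gene was at the 37.5 percentile of the tested genes by CPM per kb in control and at the 77.7 percentile in LPS libraries. Its coding sequence lies in 1 exon, and 39.5% of its exon bases overlap the antisense gene Gm49482, which had 1 count in all 6 libraries together.

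The promoters of the receptors that passed the test are shown because these 3 genes moved with LPS, 2 up and 1 down. Each runs from 250 bases before to 50 bases after the RefSeq start on GRCm38.p6, 5′ to 3′ on the strand of the gene, and capitals mark the matches described beneath. Promoters were matched for 8 of the 10 receptors, all but Hcar2 and Cysltr1.
Gpr84 promoter, chr15:103310389-103310688, minus strand: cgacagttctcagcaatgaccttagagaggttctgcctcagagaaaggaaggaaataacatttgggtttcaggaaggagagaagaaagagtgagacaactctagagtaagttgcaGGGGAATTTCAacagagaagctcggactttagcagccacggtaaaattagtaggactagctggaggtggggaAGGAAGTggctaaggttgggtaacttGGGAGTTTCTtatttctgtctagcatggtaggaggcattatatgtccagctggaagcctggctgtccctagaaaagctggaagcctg
Ptafr promoter, chr4:132563817-132564116, plus strand: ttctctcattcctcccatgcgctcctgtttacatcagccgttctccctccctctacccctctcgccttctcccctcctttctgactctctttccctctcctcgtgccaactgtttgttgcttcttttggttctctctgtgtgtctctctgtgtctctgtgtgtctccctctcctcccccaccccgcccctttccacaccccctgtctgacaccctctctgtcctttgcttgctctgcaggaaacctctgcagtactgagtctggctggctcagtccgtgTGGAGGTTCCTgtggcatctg
Gpr183 promoter, chr14:121965144-121965443, minus strand: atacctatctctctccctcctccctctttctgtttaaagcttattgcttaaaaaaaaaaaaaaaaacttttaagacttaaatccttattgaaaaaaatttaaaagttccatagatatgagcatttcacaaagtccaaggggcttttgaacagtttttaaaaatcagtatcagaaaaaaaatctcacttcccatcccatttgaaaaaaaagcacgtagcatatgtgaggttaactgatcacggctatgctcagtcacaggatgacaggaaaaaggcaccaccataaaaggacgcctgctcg
The RefSeq start of Gpr84 lies 174 bases from the start in the count table, that of Gpr183 2 bases and that of Ptafr 0 bases. For Gpr84 the RefSeq start lies inside the gene as the count table places it, and so do all matches marked in its window. Motifs were searched on both strands: the kappa B consensus of NF-kB, an IRF motif GAAANNGAA, an AP-1 motif TGANTCA, the cyclic AMP response element TGACGTCA, an ETS motif AGGAAGT and a TATA motif TATAAA. The window of Gpr84 held AGGAAGT 63 bases before the start, a match found in 9.35% of 32851 promoters of the same length. It also held the kappa B consensus with at most 1 mismatch at 135, 134 and 37 bases before the start, where the first 2 overlap. Ptafr had such a match at 29 and at 30 bases after the start, again overlapping, and Gpr183 had no match to any motif searched. A kappa B match with at most 1 mismatch is in 63.2% of all promoters, so its presence is common. None of the 8 windows held the full kappa B consensus (8.46% of all promoters), the IRF motif (8.56%), the AP-1 motif (7.81%) or the cyclic AMP response element (1.79%). The same kind of match was also in the windows of Ptger4, at 243, 242 and 187 bases before the start, and of Ltb4r1, at 67 and 66 bases before it, and neither gene passed the test. Of the other motifs, AGGAAGT was in the window of Ltb4r1 on the opposite strand, and Fpr1 and Fpr2 held TATAAA (13.6% of all promoters), 227 and 130 bases before the start. A match describes letters only, and the motifs were chosen with sequences in view.

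Hcar2 (ENSMUSG00000045502, chromosome 5, 123863570 to 123865499 on the minus strand) is a Gi-coupled receptor through which beta-hydroxybutyrate acts on myeloid cells. Control libraries had 10.1, 10.3 and 12.6 CPM and LPS libraries 12.2, 13 and 13.2 CPM, and the groups overlapped through control replicate 3. The means were 11 ± 1.42 and 12.8 ± 0.527 CPM (SD, n = 3 each), and the log2FC of 0.21 (SE 0.12, 95% interval −0.04 to 0.46, edgeR adjusted p = 0.184) did not pass the test. Both Gpr84 and Hcar2 are receptors for energy metabolites, and their intervals did not meet.

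Ptafr (ENSMUSG00000056529, chromosome 4, 132564067 to 132582683 on the plus strand) encodes the receptor for platelet-activating factor, a phospholipid that activates leukocytes. Its 5.66, 6.12 and 5.86 CPM in control libraries stood against 20, 20.1 and 19.8 CPM in LPS libraries. Replicates differed little in either group, and the groups were far apart. From 5.88 ± 0.231 to 20 ± 0.149 CPM (SD, n = 3 each), the change was 3.39-fold, a log2FC of 1.76 (SE 0.10, 95% interval 1.54 to 1.99, edgeR adjusted p = 4.5e-09). The lower end of the interval lay just above the DEG threshold of 1.5, and in edgeR's glmTreat, which tests for a change larger than that threshold, Ptafr had an adjusted p of 0.19 and Gpr84 one of 5.5e-06. Its whole coding sequence lies in 1 exon, and no other gene overlaps its exons.

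Gpr183 (ENSMUSG00000051212, chromosome 14, 121952551 to 121965195 on the minus strand) fell with LPS. Also called EBI2, it binds oxysterols made by Ch25h and Cyp7b1 and guides the movement of immune cells. The counts gave 53.2, 53.7 and 53.8 CPM in control libraries and 24.5, 23.7 and 26.4 CPM in LPS libraries. The control libraries were nearly alike, and all LPS libraries were below them. The mean dropped from 53.6 ± 0.307 to 24.9 ± 1.36 CPM (SD, n = 3 each), 2.16-fold lower, with a log2FC of −1.11 (SE 0.07, 95% interval −1.25 to −0.97, edgeR adjusted p = 4.3e-09). The change is well past the test and short of the DEG threshold, so Gpr183 is not counted among the DEG. The gene lies inside Ubac2 on the opposite strand without sharing exon bases, and Ubac2 itself had a log2FC of 0.17 (SE 0.06, edgeR adjusted p = 0.0513).

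**Figure D2:**
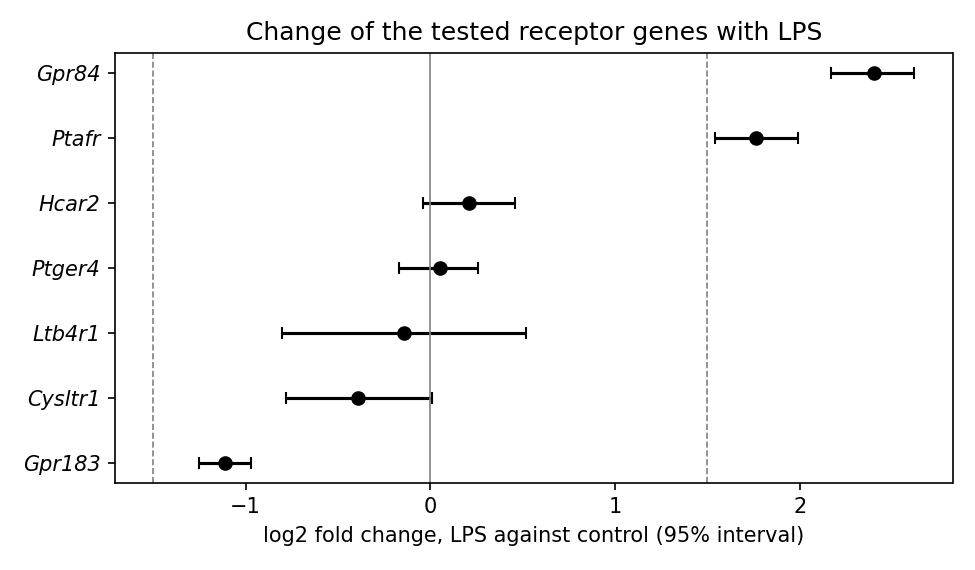
Log2 fold change of LPS against control with its 95% interval for the 7 receptor genes tested; dashed lines mark the DEG threshold of 1.5 in each direction. The intervals of Gpr84 and Ptafr lie above 1.5, that of Gpr183 between −1.25 and −0.97, and those of Hcar2, Ptger4, Ltb4r1 and Cysltr1 include 0.

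The receptors for prostaglandin E2 that raise cyclic AMP, Ptger2 (EP2) and Ptger4 (EP4), differed in level. Ptger4 (ENSMUSG00000039942, chromosome 15, 5206661 to 5244187 on the minus strand) had 16.2, 17.4 and 20.4 CPM in control libraries and 19.1, 18.7 and 18 CPM in LPS libraries. The LPS values lay within the range of the control values. Its log2FC was 0.05 (SE 0.10, 95% interval −0.17 to 0.26, edgeR adjusted p = 0.77). Of its exon bases, 16.5% overlap Ttc33 and Gm15937 on the opposite strand, and Ttc33 had a log2FC of 0.10 (edgeR adjusted p = 0.301). Ptger2 (ENSMUSG00000037759, chromosome 14, 44988195 to 45003820 on the plus strand) had 2, 0 and 4 counts in control and 1, 2 and 0 counts in LPS libraries. It was at or near the floor in both groups, so a fall or a small rise in Ptger2 was not detectable at this depth. Ptger2 was below the filter, and neither DESeq2 (unadjusted p = 0.655) nor edgeR without the filter (adjusted p = 0.756) called it.

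Of the leukotriene receptors neither passed the test. Cysltr1 (ENSMUSG00000052821, chromosome X, 106574346 to 106603679 on the minus strand) had 4.44, 5.27 and 4.2 CPM in control libraries and 3.17, 3.54 and 3.9 CPM in LPS libraries. All LPS values lay below all control values, as for 21.5% of the tested genes, yet the log2FC of −0.39 (SE 0.18, 95% interval −0.78 to 0.01) had an unadjusted p of 0.0532 and an adjusted p of 0.122 by edgeR. Ltb4r1 (ENSMUSG00000046908, chromosome 14, 55765962 to 55768494 on the plus strand), the high-affinity receptor for leukotriene B4 in chemotaxis, had 24, 34 and 22 counts in control and 24, 20 and 22 counts in LPS libraries. At 1.5 ± 0.383 and 1.36 ± 0.152 CPM (SD, n = 3 each), the groups overlapped and the log2FC was −0.14 (SE 0.31, edgeR adjusted p = 0.763). The 95% interval of Ltb4r1, −0.80 to 0.52, is the widest among the tested receptors.

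Fpr1 (ENSMUSG00000045551, chromosome 17, 17876471 to 17883940 on the minus strand) and Fpr2 (ENSMUSG00000052270, chromosome 17, 17887824 to 17893952 on the plus strand) are neighbours, 3883 bases apart. Both direct phagocytes towards bacteria and damaged cells. Fpr1 had 0 counts in each control library and 9, 8 and 9 counts in the LPS libraries, which is 0.57, 0.488 and 0.548 CPM. Against a floor of 3 counts per control library, the mean of Fpr1 in LPS libraries was 3.17-fold that floor. With an LPS library left out it was 3.07 to 3.31-fold. Such a ratio leaves out the counting error of the LPS libraries, so it is not a strict lower bound. Fpr2 had 0 counts in each control library and 1, 7 and 2 counts in the LPS libraries, with a mean 1.21-fold the same floor. LPS replicates 1 and 3 lay under that floor, so the ratio does not establish a rise of Fpr2. The ratio rests on LPS replicate 2: without that library none exceeds the floor, and without LPS replicate 1 or 3 the ratio is 1.62 or 1.45. Both genes were below the filter of the test. In DESeq2, which kept them, Fpr1 had an adjusted p of 0.00106, and Fpr2 an unadjusted p of 0.0313 with no adjusted value. In edgeR without the filter, Fpr1 had an adjusted p of 1.3e-04 and Fpr2 one of 0.047, which became 0.0553 with robust dispersion. Fpr2 shares 3.7% of its exon bases with Fpr3, which had no counts.

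Levels of different genes were compared per length, as CPM per kb of gene. In control libraries Gpr183 came first with 18.6 ± 0.106 CPM per kb, followed by Hcar2 at 5.7 ± 0.738, Gpr84 at 4.13 ± 0.442, Ptger4 at 2.71 ± 0.331 and Ptafr at 1.62 ± 0.0634 CPM per kb (SD, n = 3 each). Next to each other, these 5 did not overlap, whereas Ltb4r1 (1.08 ± 0.274 CPM per kb) and Cysltr1 (0.901 ± 0.11 CPM per kb) did. In LPS libraries Gpr84 led with 21.8 ± 1.87 CPM per kb, ahead of Gpr183 at 8.61 ± 0.472, Hcar2 at 6.62 ± 0.273, Ptafr at 5.49 ± 0.0411 and Ptger4 at 2.8 ± 0.0807 CPM per kb (SD, n = 3 each). All neighbours in that order were separated by their libraries, down to Fpr2. Fpr2 and Ptger2, both near the floor, were separated per kb but overlapped in CPM. Gpr84 thus moved from the third place to the first, Gpr183 from the first to the second, and Ptafr passed Ptger4.

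The summed level of the 10 receptors was 33.2, 35 and 36 CPM per kb in control libraries and 48.8, 45.4 and 48.5 CPM per kb in LPS libraries. Gpr183 made up 55.6, 53.2 and 51.8% of the sum in control libraries and 17.4, 18.1 and 18.8% in LPS libraries. Gpr84 took 10.9, 12.4 and 12.3% in control and 48.1, 43.6 and 45.8% in LPS libraries. The leading receptor by share was thus Gpr183 in each control library and Gpr84 in each LPS library. Ptafr went from 4.66 ± 0.17 to 11.5 ± 0.53% of the sum. A share also moves when other members move, and Hcar2, whose level did not pass the test, had 16.4 ± 1.59 and 13.9 ± 0.968%. In plain CPM, without division by length, Gpr183 held 52.7% in control and 20.8% in LPS libraries, and Gpr84 6.98% and 31.5%, while Hcar2 held 10.8% and 10.7% with overlapping groups. With 3 against 3 libraries an exact permutation test cannot go below p = 0.1, so the shares are given without a call.

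**Figure D3:**
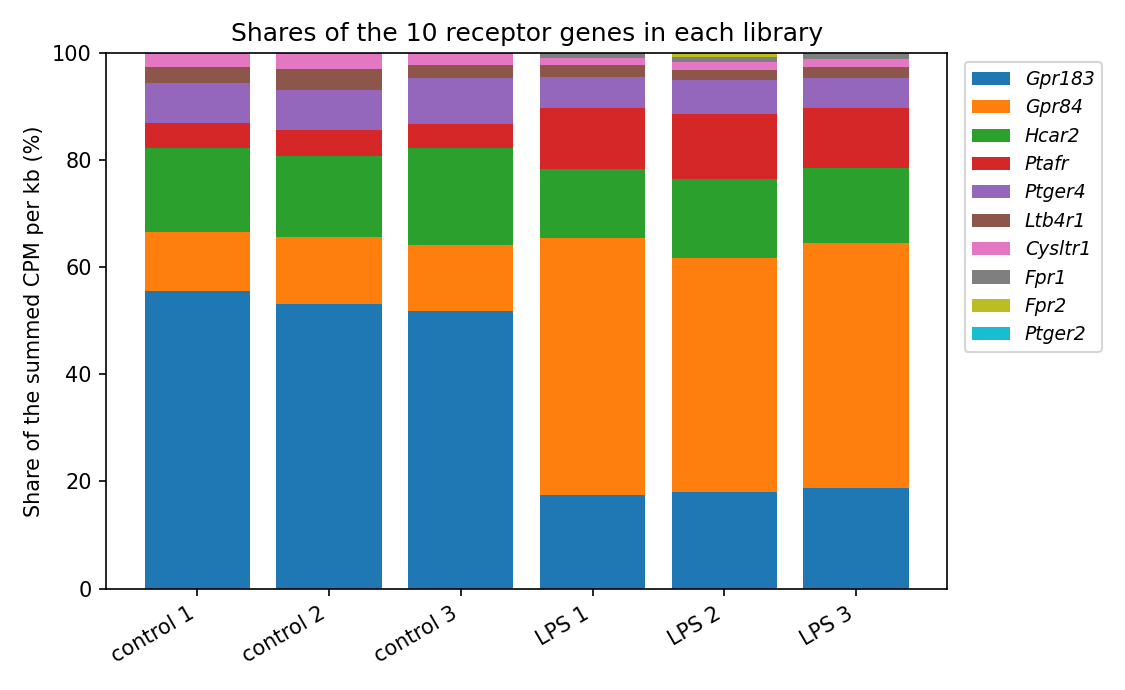
Share of each receptor gene in the summed CPM per kb of the 10 receptors, in percent, as stacked bars from 0 to 100 for each of the 6 libraries. Gpr183 fills 51.8 to 55.6% of the control bars and 17.4 to 18.8% of the LPS bars, and Gpr84 10.9 to 12.4% and 43.6 to 48.1%.

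The genes whose levels followed the DEG among the receptors most closely were found by the Euclidean distance of centred log2 CPM over the 6 libraries. Nearest to Gpr84 were Ier3 (distance 0.194, log2FC 2.42), an early response gene, Slc7a11 (0.23, log2FC 2.32), the cystine transporter, and Tnfaip3 (0.279, log2FC 2.34), which encodes the NF-kB inhibitor A20. Nearest to Ptafr were Rapgef2 (0.0914, log2FC 1.72), an exchange factor for Rap proteins, Tlr2 (0.097, log2FC 1.78), the receptor for bacterial lipoproteins, and Slc15a3 (0.0986, log2FC 1.80), a peptide transporter of lysosomes. Over 2 groups of 3 libraries, such a distance is small for any gene with a like fold change.

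Other receptors for lipid mediators and metabolites were examined in a list of 48 genes, of which 37 were below the filter and 17 of those had no count in any library. Of the 11 tested, 4 were higher and 5 lower at an adjusted p under 0.05 (36.4% and 45.5%, beside 18.7% and 15.7% of all tested genes), with a median log2FC of −0.04. No gene of this list was a DEG in either direction by edgeR, at an unadjusted p under 0.05 or by DESeq2. By edgeR the log2FC lay between −1.23 (Lpar2) and 0.89 (S1pr2), short of the fold threshold at any p. S1pr1, a receptor for sphingosine 1-phosphate, fell from 23.9 ± 2.44 to 11.4 ± 0.776 CPM (SD, n = 3 each), a log2FC of −1.07 (SE 0.10, edgeR adjusted p = 1.3e-06). Lpar2, a receptor for lysophosphatidic acid, fell from 17.7 ± 1.25 to 7.55 ± 0.239 CPM, a log2FC of −1.23 (SE 0.11, edgeR adjusted p = 4.1e-07). The cannabinoid receptor Cnr2 had 62, 69 and 66 counts in control and 39, 14 and 27 counts in LPS libraries, a log2FC of −1.16 (SE 0.30, edgeR adjusted p = 0.00707) that moved to −1.56, past the DEG threshold, without LPS replicate 1, was −0.84 (adjusted p = 0.032) without LPS replicate 2, and lay at an adjusted p of 0.102 with control replicate 1 as the lone control. The 3 genes of the list with the highest mean CPM all rose. Ptgir, the prostacyclin receptor, rose from 128 ± 2.45 to 167 ± 3.27 CPM (log2FC 0.38, SE 0.04, edgeR adjusted p = 7.3e-06), and S1pr2, which also binds sphingosine 1-phosphate, from 45.1 ± 5.44 to 83.4 ± 2.17 CPM (log2FC 0.89, SE 0.07, edgeR adjusted p = 1.7e-07). Ptger3 (EP3), which lowers cyclic AMP, rose from 61.2 ± 1.77 to 78.9 ± 3.59 CPM (log2FC 0.37, SE 0.05, edgeR adjusted p = 6.9e-05). By length it was the highest of the prostaglandin E2 receptors, at 10.8 ± 0.311 CPM per kb in control and 13.9 ± 0.631 CPM per kb in LPS libraries, above Ptger4 at 2.71 and 2.8 CPM per kb. The remaining receptor of that family, Ptger1, named after its values were seen, had 0, 4 and 1 counts in control and 0, 4 and 0 counts in LPS libraries. Next in CPM after Ptgir, Ptger3 and S1pr2 came Lpar5 and Gpr35, also named after their values were seen. Both fell, Lpar5 with a log2FC of −0.27 (edgeR adjusted p = 0.0275) and Gpr35 with one of −0.31 (edgeR adjusted p = 0.0197). By length, Lpar5 lay above Ptger3 and S1pr2, at 19.7 CPM per kb in control and 16.3 CPM per kb in LPS libraries.

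Genes that make, carry or remove the ligands were read from a list of 28, of which 18 were tested. Of these, 7 were higher and 3 lower at an adjusted p under 0.05 (38.9% and 16.7%, beside 18.7% and 15.7% of all tested genes), 1 was an up-regulated DEG (5.56%, beside 2.4%) and the median log2FC was 0.12. By edgeR with the filter on low counts the list held no down-regulated DEG at any p, as the lowest log2FC was −0.75. DESeq2, run without that filter on all 28 genes, also called none, whereas edgeR without the filter called 1. Ptges, the inducible prostaglandin E synthase, was the up-regulated DEG, with 85, 107 and 123 counts in control and 356, 366 and 338 counts in LPS libraries. The rise was from 5.88 ± 0.843 to 21.8 ± 1.08 CPM (SD, n = 3 each), a log2FC of 1.89 (SE 0.12, edgeR adjusted p = 8.8e-09). Ptgs2, the inducible cyclooxygenase upstream of it, rose from 37 ± 1.45 to 86.3 ± 4.72 CPM, a log2FC of 1.22 (SE 0.06, edgeR adjusted p = 4.1e-10). Of the genes that fell, 2 of the same route are named after their values were seen. Pla2g4a, the phospholipase that releases arachidonic acid, fell from 141 ± 4.6 to 83.9 ± 6.32 CPM (log2FC −0.75, SE 0.06, edgeR adjusted p = 5.5e-08), and Ptgs1, the constitutive cyclooxygenase, from 50.4 ± 4.85 to 34.4 ± 1.77 CPM (log2FC −0.55, SE 0.08, edgeR adjusted p = 5.0e-05). Among the 3 genes of the list with the highest mean CPM, Anxa1, which encodes the Fpr2 ligand annexin A1, rose from 337 ± 10.2 to 604 ± 25.2 CPM (log2FC 0.84, SE 0.04, edgeR adjusted p = 6.3e-10). Abcc1, which exports leukotriene C4, rose from 173 ± 18.5 to 218 ± 5.56 CPM (log2FC 0.33, SE 0.06, edgeR adjusted p = 9.8e-04). By length Abcc1 ranked lower, at 11.5 CPM per kb in control and 14.4 CPM per kb in LPS libraries. Alox5ap, named after its values were seen, had 40.9 and 38.1 CPM per kb. Ptges3, a further prostaglandin E synthase and cochaperone, had 242 ± 13.1 and 266 ± 14.2 CPM (log2FC 0.14, SE 0.05, edgeR adjusted p = 0.056), and it passed in 6 of the other fits, among them that without the filter (adjusted p = 0.0367), while its log2FC was 0.08 without control replicate 1 (adjusted p = 0.235) and 0.09 without LPS replicate 1 (adjusted p = 0.214). Of the 10 genes below the filter, 3 that serve a receptor described here are given although chosen after their values were seen. Ch25h, which makes the precursor of the Gpr183 ligand, had 0, 0 and 0 counts in control and 3, 3 and 1 counts in LPS libraries, and both groups were at or under the floor. Alox5, which starts leukotriene synthesis, had 5, 1 and 11 counts in control and 1, 0 and 2 counts in LPS libraries, and Ltc4s, the leukotriene C4 synthase, had 1, 0 and 1 counts in LPS libraries and none in control.

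Genes that carry the receptor signal inside the cell were read from a list of 45 names, of which 43 were in the table and 41 were tested. The names not in the table are older symbols of genes that the list also holds under their current names. At an adjusted p under 0.05, 8 were higher and 13 lower (19.5% and 31.7%, beside 18.7% and 15.7% of all tested genes), and the median log2FC was −0.08. Pde4b, a phosphodiesterase that breaks down cyclic AMP, was the up-regulated DEG of the list (2.44% of those tested, beside 2.4% of all genes). It had 53, 53 and 35 counts in control and 333, 409 and 428 counts in LPS libraries, and went from 2.66 ± 0.675 to 24 ± 2.6 CPM, a log2FC of 3.18 (SE 0.16, edgeR adjusted p = 6.1e-10). That log2FC was larger than the one of any receptor tested. Rgs18, which shortens the signal of Gi and Gq proteins, was the down-regulated DEG (1 of 41 tested, beside 0.252% of all genes), from 11.8 ± 1.1 to 3.99 ± 0.994 CPM (log2FC −1.57, SE 0.17, edgeR adjusted p = 2.9e-06). Its log2FC was −1.47 without LPS replicate 2 and also without LPS replicate 3, short of the DEG threshold. Rgs16, of the same protein family, rose from 36.1 ± 0.904 to 73.5 ± 2.15 CPM (log2FC 1.02, SE 0.06, edgeR adjusted p = 1.5e-09). The 3 genes of the list with the highest mean CPM moved little. Gnb1 had a log2FC of 0.16 (edgeR adjusted p = 0.00492), Gnai2 one of −0.11 (edgeR adjusted p = 0.0433) and Prkar1a one of −0.05 (edgeR adjusted p = 0.417). Next in CPM, and named after their values were seen, were Rgs2, Gnb2 and Pik3r5. Rgs2 fell (log2FC −0.36, edgeR adjusted p = 1.0e-05) and Pik3r5 rose (log2FC 0.75, edgeR adjusted p = 3.4e-09). Gnb2 did not pass (log2FC −0.04, edgeR adjusted p = 0.518). By length, Rgs2 was the highest of the list in control libraries, at 112 CPM per kb. Gnai2 lost its call in 5 of the 6 fits that left out a library, where its adjusted p reached 0.141, and Gnb1 lost it without control replicate 3 (adjusted p = 0.0504). With control replicate 1 as the lone control, neither passed by edgeR (adjusted p = 0.0944 for Gnai2 and 0.195 for Gnb1).

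**Figure D4:**
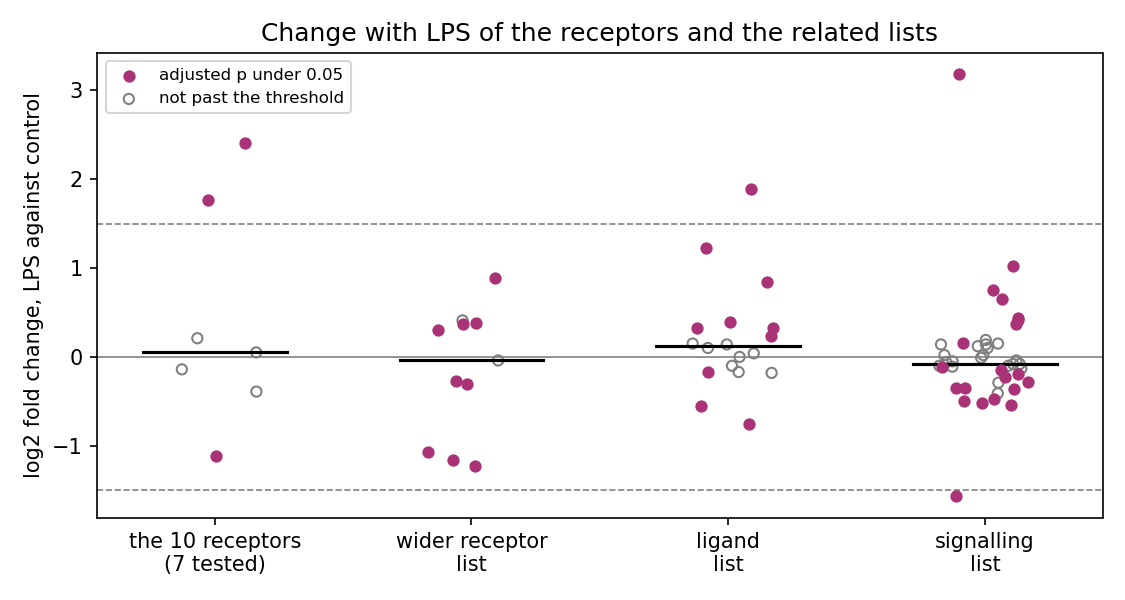
Log2 fold change of LPS against control for each tested gene of the 10 receptors and of the wider receptor, ligand and signalling lists; filled points passed an adjusted p of 0.05, bars mark medians, dashed lines the DEG threshold of 1.5, and the sideways position of points has no meaning. The medians lie at 0.05, −0.04, 0.12 and −0.08, and the points past the threshold are Gpr84, Ptafr, Ptges, Pde4b and, at −1.57, Rgs18.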

How the data were processed

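N9 microglia were sequenced by Novogene in 3 control and 3 LPS libraries, grouped by the labels. The authors deposited raw counts of reads for 54532 genes, without normalization. The submitters' processing notes name featureCounts 1.5.0-p3 and mm10, while the aligner and the use of strand are not given in the sources used here. A deposited table of the authors' own comparison, which holds fold changes and p-values, was not used.

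Counts were tested with edgeR 4.0.16 under R 4.3.3 (quasi-likelihood test, TMM, filterByExpr by group with a minimum count of 10, prior count 0.125). Benjamini-Hochberg adjustment covered the 12296 genes tested. The SE is the absolute log2 fold change over the square root of F, and 95% intervals used the residual and prior degrees of freedom (prior 10.1). The fit was tested on simulated data with 200 changed genes. CPM used TMM-scaled library sizes, CPM per kb the gene length of the deposited table. A count of 3 equals 0.161 to 0.19 CPM, and since reads carried no molecular identifiers, floors cover counting error only. Gene overlaps came from GENCODE release M21, whose coordinates equal those of the table for the 10 receptors, and promoters from RefSeq (GRCm38.p6). DESeq2 1.42.0, limma 3.58.1, scipy 1.17.1 and matplotlib 3.10.9 under Python 3.11.15 were also used.

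The receptors and all lists were chosen with earlier results of these data known. Named genes are the 10 receptors, and of each list every DEG, every other gene past the adjusted p with an absolute log2 fold change over 1, and up to 3 more with the highest mean CPM, as well as the 3 genes nearest to each receptor DEG. Genes named outside this rule are marked as chosen after their values were seen, apart from cell type markers and overlapping genes. Alternatives were DESeq2, RLE size factors, no filter (also with robust dispersion), glmTreat, filtering at a mean of 10 counts, robust dispersion, prior count 2, the replicate number as a block, and leaving out each library. Control replicate 1 as the lone control was added after seeing the data, and assumes that this library varies like the others. A ligand-list gene that edgeR called without the filter is not reported here.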

Additional observations from a re-analysis of the deposited data

How the results depend on the processing

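Over 15 other fits the log2FC of Gpr84 lay between 2.30 and 2.59, that of Ptafr between 1.72 and 1.82 and that of Gpr183 between −1.15 and −1.08, all past an adjusted p of 0.05, while Hcar2, Ptger4, Cysltr1 and Ltb4r1 passed in none of them. In glmTreat, a test against the threshold itself, up-regulated DEG went from 295 to 181 and down-regulated DEG from 31 to 2, receptors among the up-regulated DEG from 2 to 1 and signalling genes among the down-regulated DEG from 1 to 0, and neither Ptafr (log2FC 1.76, edgeR adjusted p = 0.19) nor Gpr183 (log2FC −1.11, edgeR adjusted p = 1) passed. Without the filter, down-regulated DEG numbered 91 (76 with robust dispersion). The receptors then held 4 up-regulated DEG and 4 higher genes (3 and 3 with robust dispersion). All genes together held 378 up-regulated DEG (363 with robust dispersion). Added were Fpr1 and Fpr2 (Fpr1 alone with robust dispersion), which had no counts in control libraries and entered only through the LPS libraries. The share of all genes called in these fits is not given here, so the receptor counts have no background. The ligand list went from 0 to 1 down-regulated DEG, also with robust dispersion. Leaving out a library gave 301 to 322 up-regulated and 38 to 62 down-regulated DEG (49 without control replicate 1, 62 without LPS replicate 1, 52 without LPS replicate 2 or 3), 0 to 1 down-regulated DEG in the wider receptor list (1 without LPS replicate 1) and 0 to 1 in the signalling list (0 without LPS replicate 2 or 3). The sign turned for Ptger4 without control replicate 1 (−0.04, lowest to highest −0.04 to 0.14) and for Ltb4r1 without control replicate 2 (0.07, −0.30 to 0.07), neither called in any fit. The cause of these shifts was not tested beyond what each setting changes by construction. Deviations of same-numbered libraries had correlations of 0.136, 0.059 and −0.004. The first was the highest of all pairs, while control replicate 2 was most like LPS replicate 3, at 0.091. With 3 libraries in each group these values cannot decide whether the replicate numbers pair the libraries. The replicate block gave 297 up-regulated and 32 down-regulated DEG, with 2 receptors up-regulated and log2FC of 2.40, 1.76 and −1.11 for Gpr84, Ptafr and Gpr183.

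Depth limits Ptger2, Fpr1 and Fpr2, which lie near the floor of 3 counts, and Ltb4r1, whose interval is wide. Only 3 libraries in each group limit the precision of every value.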
